A study of Arabidopsis thaliana with 2 samples.

Results

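The glutathione transferases of Arabidopsis thaliana were examined for occupancy by IBH1, an atypical helix-loop-helix protein that holds back cell elongation downstream of brassinosteroids. The family was taken as the nuclear protein-coding genes whose symbol or synonym in the gene table is GSTU, GSTF, GSTT, GSTZ, GSTL or DHAR followed by a number. The rule found 52 of 27444 genes: 28 of the tau class (GSTU), 13 of phi (GSTF), 3 of theta (GSTT), 2 of zeta (GSTZ), 3 of lambda (GSTL) and 3 dehydroascorbate reductases (DHAR). GSTU17 was matched by a synonym, since its symbol is ERD9. The rule itself reads gene names only. A gene is called bound when a peak summit lies inside its bounds or within 1000 bp of them. The word describes summit position only and does not show direct contact of IBH1 with DNA.

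Occupancy was measured by chromatin immunoprecipitation with sequencing (ChIP-seq), using an antibody to green fluorescent protein (GFP), on entire 10-day-old Col-0 seedlings that received no treatment. Seedlings of both groups were grown at 22 °C with a photoperiod of 16 h. One group was p35S::IBH1-GFP, in which the strong and nearly ubiquitous 35S promoter drives IBH1 fused to GFP. The other was p35S::GFP, in which the same promoter drives GFP alone, although the library protocol names this sample Col-0. The first sample is titled IBL1 (a related protein), but its line is given as IBH1. Each group was 1 library made from the pooled DNA of 3 ChIP experiments, so no value has a replicate error and no test between groups could be made. The single deposited list holds 2945 peaks, 2944 of them on the nuclear chromosomes. It names no sample and is read as IBH1-GFP occupancy, because that is the subject of the series. No separate list for the GFP library was at hand, so no peak at the family could be set beside GFP peaks. The depth of both libraries is unknown. Tissues cannot be told apart in whole seedlings, and the 35S promoter also drives IBH1 in cells that may not make it otherwise.

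Glutathione transferases join the tripeptide glutathione to reactive compounds, which marks them for transport into the vacuole, and some reduce peroxides or carry small molecules. The tau and phi classes are the large plant classes, and their genes stand in tandem arrays and are known for induction by herbicides, pathogens, auxin and other stress signals. Zeta enzymes act in tyrosine breakdown, theta enzymes reduce organic peroxides, lambda enzymes act as thiol transferases, and dehydroascorbate reductases return oxidised ascorbate to its reduced form.

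Of the 52 members, 8 were bound (15.4%, exact 95% binomial interval 6.88% to 28.1%), against 12.7% of all nuclear protein-coding genes. The interval holds the value of all genes, and it covers counting error only. It also takes the members as independent, although neighbouring members share summits. Bound members were found in the tau class (GSTU4, GSTU5, GSTU13 and GSTU14, 4 of 28, 14.3%), the phi class (GSTF9 and GSTF10, 2 of 13, 15.4%), the zeta class (GSTZ1, 1 of 2) and the dehydroascorbate reductases (DHAR3, 1 of 3). None of the 3 theta and none of the 3 lambda genes was bound. The members are shorter than most genes, with a median of 1384 bp against 2078 bp for all genes. Among the 18025 protein-coding genes within the members' range of lengths, 845 to 3160 bp, the bound share was 12.6%.

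**Figure D1:**
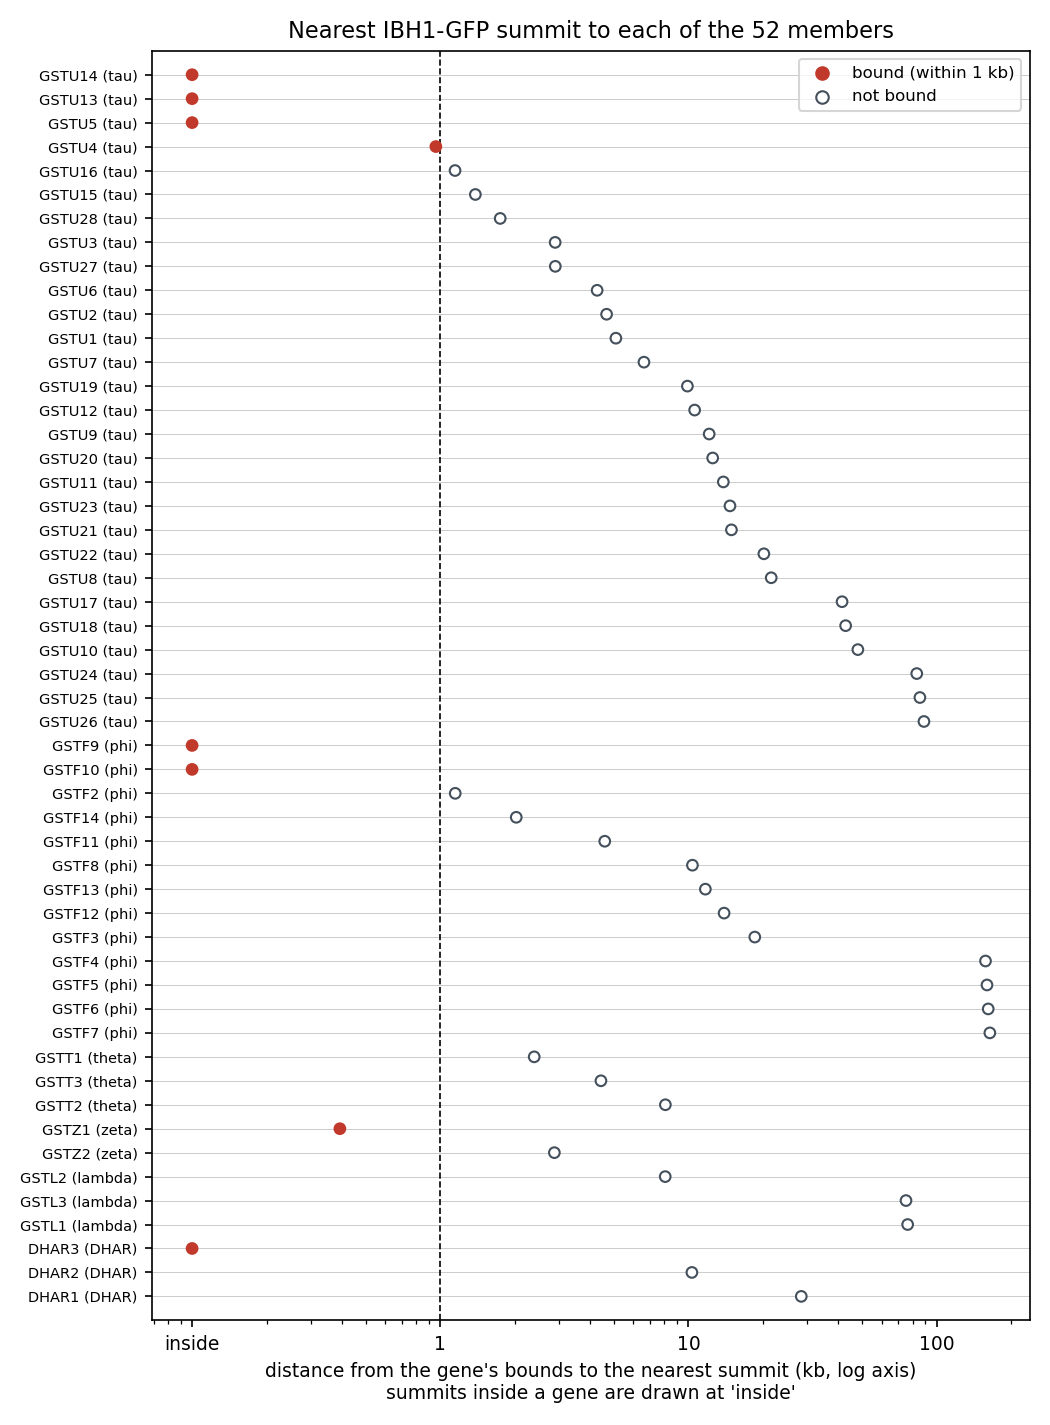
Distance from each of the 52 members, grouped by class, to the nearest summit, in kb on a log axis. Filled points are the 8 bound members, open points the 44 others, and the dashed line marks 1 kb. The 6 members with a summit inside their bounds are drawn at the left edge, and the GSTF4 to GSTF7 genes lie farthest from any summit.

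These 8 genes rested on 7 peaks. GSTU4 and GSTU5 shared a summit, and GSTF9 had both its own summit and that of GSTF10 within reach. A peak's score is the caller's own value, and its height is the number of stacked fragments at the summit. Both rank peaks within this list only. The median score of the 7 peaks was 74.23, against 72.83 for all nuclear peaks, and 4 of the 7 lay above that median. Their median height was 21 fragments, against 27 for all nuclear peaks, and only the summits of GSTF10 and GSTZ1 were higher than 27. In width 6 of the 7 exceeded the list's median, at a median of 1101 bp against 885 bp.

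**Figure D2:**
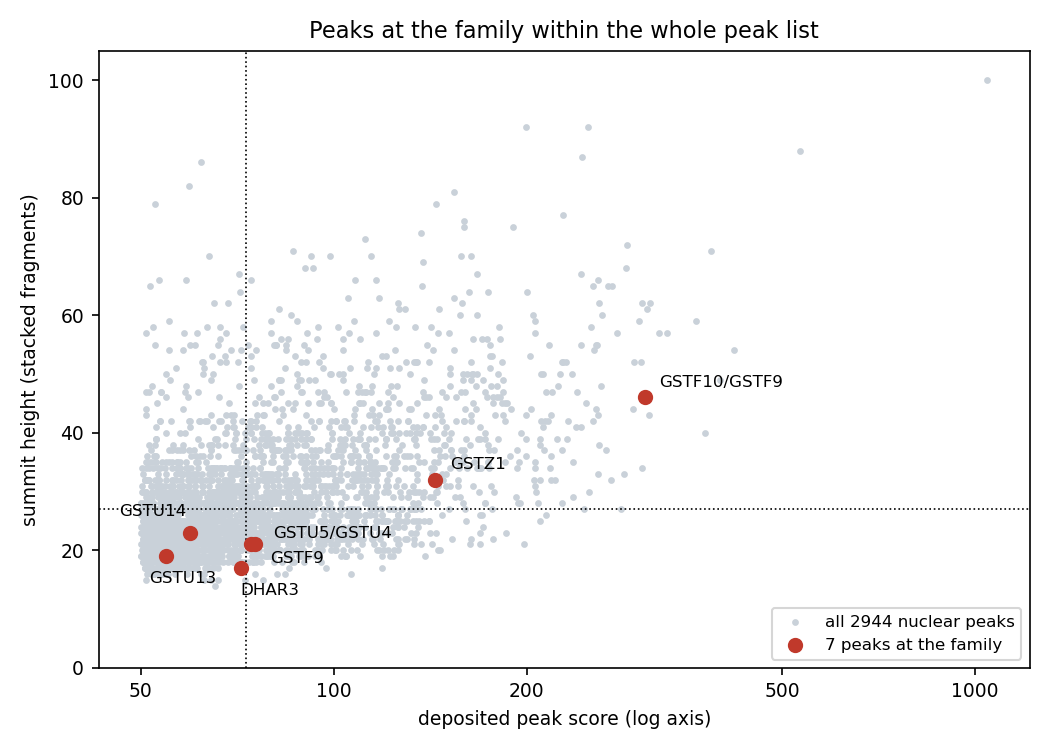
Deposited score (log axis) against summit height for all 2944 nuclear peaks (grey) and the 7 peaks at the family (red, labelled with the members in reach). Dotted lines mark the medians of all peaks, 72.83 and 27. The peaks of GSTF10 and GSTZ1 stand above both lines, and the other 5 lie below the height median.

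The phi genes GSTF9 and GSTF10 form a tandem pair in which both genes held a summit. GSTF10 (AT2G30870), whose protein is reported to interact with the brassinosteroid co-receptor kinase BAK1, had the strongest peak of the family. It spanned chromosome 2, 13141114 to 13142667 (TAIR9), and its score of 305.53 ranked 13 of 2945. Its summit was 46 fragments high and ranked 263 by height. The summit lay 11 bp inside the lower-coordinate end of the gene, and the peak ran over 1378 of the gene's 1387 bp. GSTF9 (AT2G30860), the other gene of the pair, held a weaker peak on chromosome 2, 13138810 to 13139910. Its score was 74.23 (rank 1418) and its height 21 fragments, and its summit lay 250 bp from the lower end of the gene. The stronger summit of GSTF10 was also 909 bp from GSTF9. Both peaks thus had their summits at the lower-coordinate end of their gene. The gene table carries no strand, so this end could not be named as start or end of transcription.

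The tau pair GSTU13 and GSTU14 likewise held a summit in each gene, with scores below the median of all peaks in both. GSTU13 (AT1G27130), an enzyme linked to indole glucosinolate metabolism, had a peak on chromosome 1, 9425107 to 9425868, that scored 54.66 at 19 fragments. Its summit lay 106 bp from the lower end of the gene. GSTU14 (AT1G27140) held all 912 bp of its peak at 9427834 to 9428745, which scored 59.6 at a height of 23. That summit lay 357 bp from the upper end of the gene and 451 bp from AT1G27150. The scores of GSTU13 and GSTU14 ranked 2514 and 2151 of 2945.

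In the 7-gene tau array of GSTU1 to GSTU7 a single summit was found. It lay in GSTU5 (AT2G29450), 272 bp from the upper end of the gene, in a peak on chromosome 2, 12624609 to 12625766. The score was 75.23 and the height 21 fragments, and all 1158 bp of the peak were inside the gene. GSTU4 (AT2G29460) counted as bound through this same summit, which stood 960 bp away, just inside the limit of 1000 bp. The short gene AT2G29452 lay between them, 336 bp from the summit. The neighbours GSTU3 and GSTU6 were not bound, with the nearest summit at 2904 and 4287 bp. GSTU2, GSTU1 and GSTU7 were not bound either, with distances of 4680, 5102 and 6619 bp.

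GSTZ1 (AT2G02390), the maleylacetoacetate isomerase of tyrosine breakdown, was bound only through a summit in another gene. This summit lay inside AT2G02400, 394 bp beyond the upper end of GSTZ1, and the peak on chromosome 2, 631322 to 632767, did not overlap GSTZ1 at all. Scoring 143.89 (rank 271) at 32 fragments, it was the second strongest at the family. Its tandem partner GSTZ2 was 2883 bp from that summit and not bound.

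DHAR3 (AT5G16710), the plastid dehydroascorbate reductase, held a summit 58 bp from the lower end of the gene. The peak spanned chromosome 5, 5482545 to 5483612, and scored 71.55. Its 17 fragments were the lowest height of the 7. More of the peak lay over the neighbour AT5G16700 (501 bp) than over DHAR3 (353 bp), although the summit was 273 bp outside that neighbour. Of the other reductases, DHAR1 and DHAR2 were not bound, with nearest summits at 28494 and 10328 bp.

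**Figure D3:**
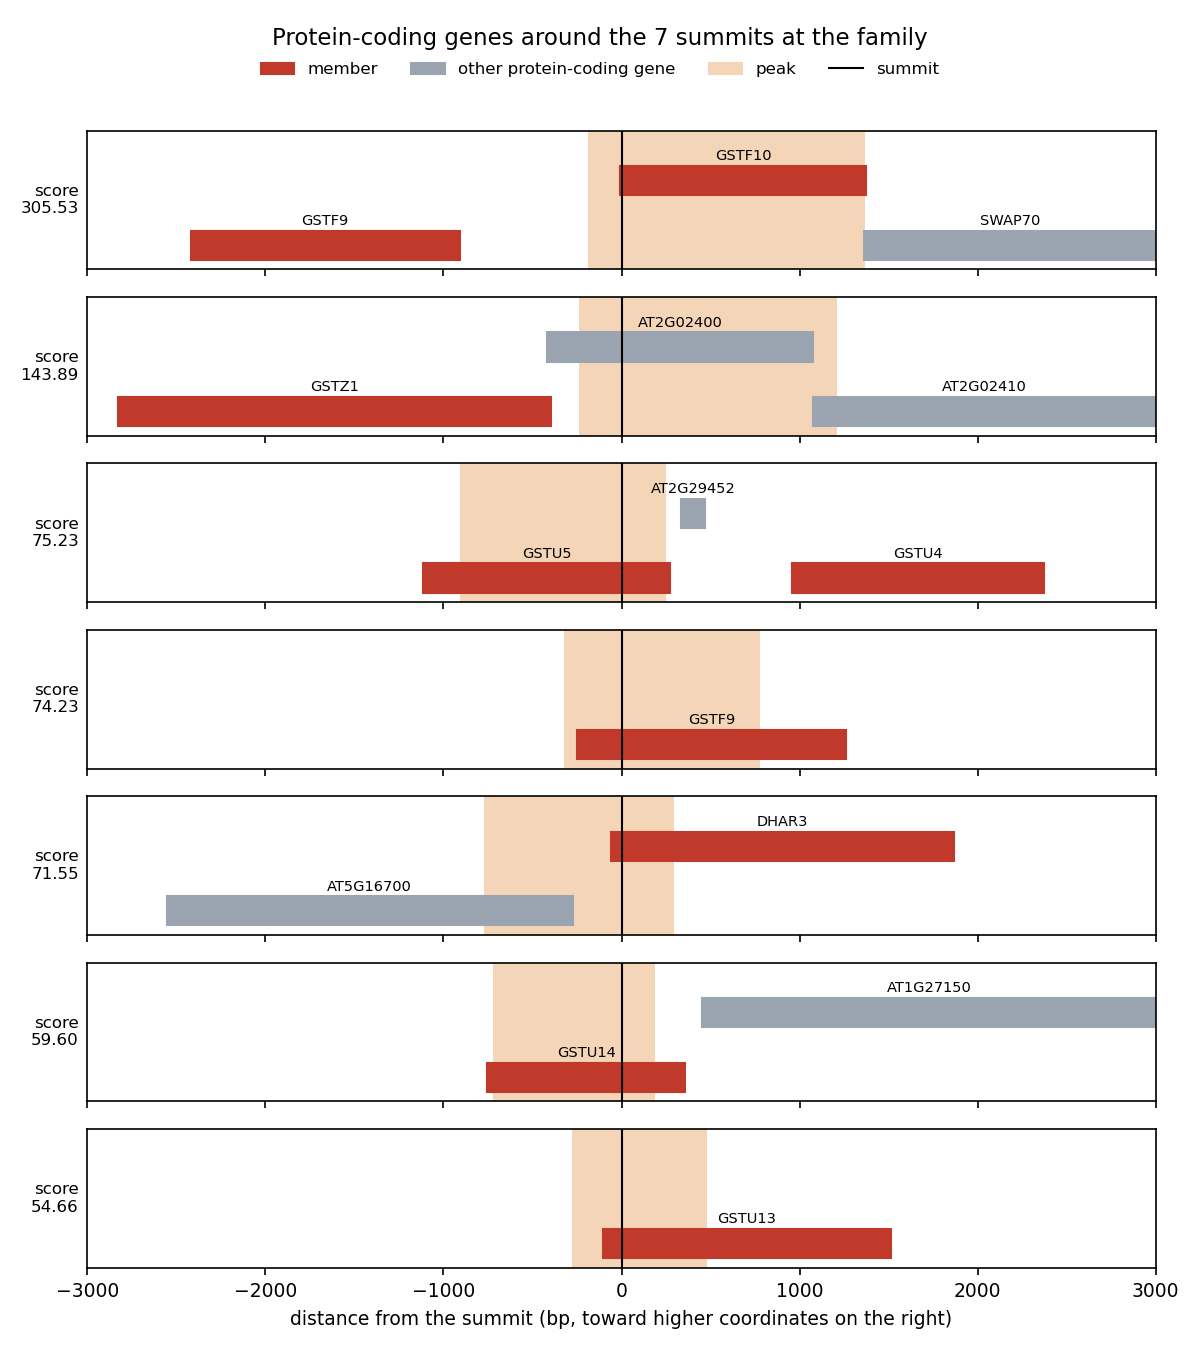
Protein-coding genes that overlap each of the 7 peaks or lie within 1000 bp of its summit, drawn to scale against the distance from the summit in bp, strongest peak at the top. Genes that run past the edge of a panel are cut off there. Members are red, other genes grey, the peak is shaded and the black line is the summit. The summit falls inside a member in 6 panels and inside AT2G02400 in the panel of GSTZ1.

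The 6 summits inside members stood 11 to 357 bp from the nearer end of the gene. As a share of the gene's length this was 0.793% for GSTF10 to 32.1% for GSTU14, with a median of 11.5%. Over the 2039 pairs of a summit and a protein-coding gene that holds it, the median was 16.1%. Of the 7 peaks, 5 were in reach of 2 or more protein-coding genes (71.4%), against 1065 of the 2663 peaks in reach of any gene.

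Tandem arrangement and occupancy were set side by side. With members counted as clustered where the starts of neighbouring members were under 20000 bp apart, 36 members fell into 12 clusters and 16 stood alone. Of the clustered members 7 were bound (19.4%), and of those alone 1 (DHAR3, 6.25%), against 12.7% of all genes. The exact 95% intervals were 8.19% to 36.0% for clustered members and 0.158% to 30.2% for those alone. Both hold the value of all genes, and they take members as independent. In a cluster 1 summit can count for neighbours, as it did for GSTU4 and GSTU5. The 7 bound clustered members sat in 4 clusters, while 8 clusters with 23 members held none. Clusters without a bound member included GSTU19 to GSTU23, whose members lay 9906 to 20136 bp from a summit. GSTU20 is known as a partner of the light and jasmonate signalling enzyme FIN219. These clusters also included GSTU17 and GSTU18, 41598 and 43003 bp away. Another was GSTU24 to GSTU26, at 83182 to 88934 bp, with the detoxifiers of trinitrotoluene GSTU24 and GSTU25. The phi array GSTF4 to GSTF7, which holds the camalexin synthesis gene GSTF6, was farthest of all, at 157442 to 163933 bp. Near-identical copies are common in such arrays, and reads that fit several copies can be lost or misplaced. The effect of this on the members' peaks was not tested.

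**Figure D4:**
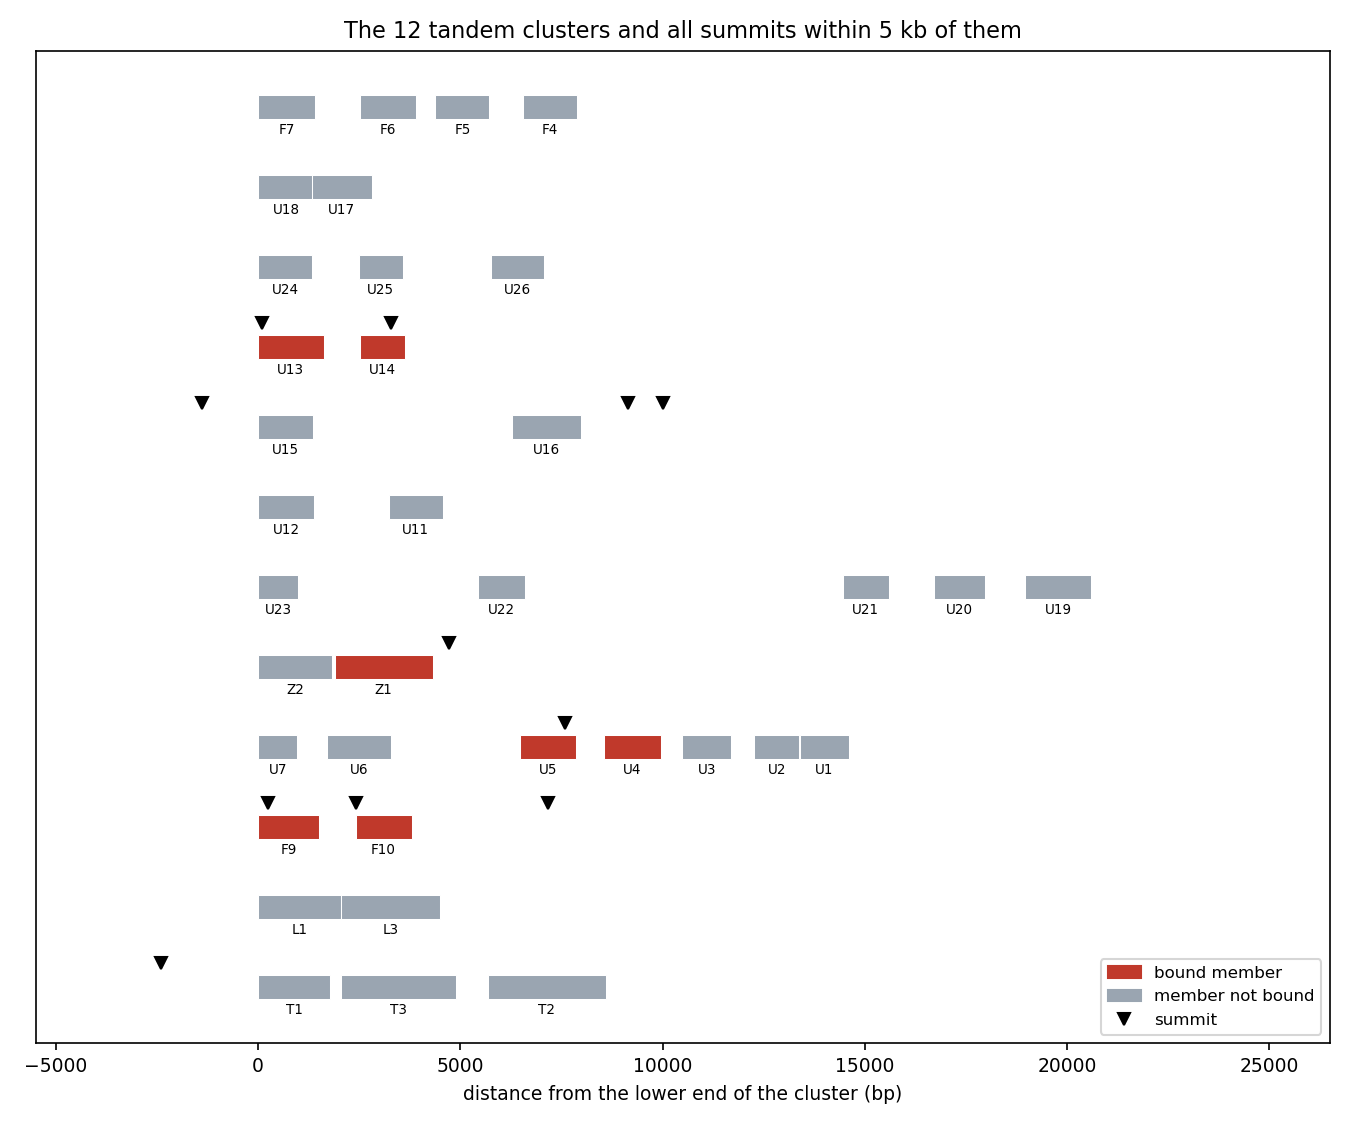
The 12 tandem clusters drawn to scale from their lower end in bp, with bound members red and others grey (labels without the prefix GST), and every summit within 5 kb of a cluster as a triangle. The pairs GSTU13 with GSTU14 and GSTF9 with GSTF10 have a summit in each gene, and the array of GSTU1 to GSTU7 has 1.

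The 44 members that were not bound lay 1.15 to 164 kb from the nearest summit, with a median of 11.9 kb, and 26 of them were over 10 kb away. Just outside the limit of 1000 bp stood 4 members, and each of these summits was nearest to another gene. GSTU16 had a summit at 1147 bp (score 60.41, inside AT1G59710), and a stronger one at 2016 bp (169.08). Its neighbour GSTU15 had a summit at 1385 bp (94.05, inside AT1G59660). GSTF2, a phi enzyme that binds camalexin, had a summit at 1149 bp inside TOC159, the receptor of plastid protein import, scoring 92.01 at 37 fragments. GSTU28 had a summit at 1744 bp with a score of 53.37, which lay 55 bp from MSRB1. Just inside the limit stood GSTU4 at 960 bp and, for the second of its summits, GSTF9 at 909 bp. Apart from the 4 members just outside the limit, no unbound member had a summit within 2000 bp. The next was GSTF14 at 2024 bp.

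The small classes without a bound gene differed in how far they stood from a summit. The theta genes GSTT1, GSTT3 and GSTT2, a tandem array, were 2391, 4441 and 8075 bp from the same summit, which lay in AT5G41190 with a score of 70.55. Of the lambda genes, GSTL2 was 8063 bp away, while the tandem pair GSTL1 and GSTL3 stood 76457 and 75289 bp away. Among single phi genes, the anthocyanin carrier gene GSTF12 was 13923 bp and the stress-induced GSTF8 10379 bp from a summit. A peak scoring 175.47 at 53 fragments lay 4601 bp from GSTF11, which takes part in aliphatic glucosinolate synthesis. The nearest summits to GSTF13 and GSTF3 were 11702 and 18511 bp away. Of the remaining tau genes, GSTU27 stood 2908 bp from a summit, GSTU12 and its tandem partner GSTU11 10594 and 13825 bp, GSTU9 12123 bp, GSTU8 21558 bp and GSTU10 48170 bp.

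Over the family as a whole, the nearest summit was at a median of 10.1 kb, against 13.8 kb over all protein-coding genes (quartiles 2.3 and 23.3 kb against 4.19 and 34.3 kb). Within 5 kb of a summit were 21 of the members (40.4%), against 27.7% of all genes, and within 10 kb were 26 of 52, against 41.9% of all genes. Members of an array count separately here although they share 1 summit, so these shares describe positions and are not 52 independent values.

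How many members were called bound depended on the definition. With summits inside the gene only, 6 members were bound (11.5%), against 7.05% of all genes. Within 500 bp there were 7 (13.5%, against 10.6%), and within 2000 bp there were 12 (23.1%, against 16.7%). With peaks scoring 100 or more, GSTF9, GSTF10 and GSTZ1 stayed bound through 2 peaks (5.77%, against 3.38%). With peaks at or above the median score 5 were bound (9.62%, against 6.70%). With each summit given to its nearest gene there were 6 (11.5%, against 9.26%), with peak midpoints 7 (13.5%, against 12.8%), and with any overlap of peak and gene 6 (11.5%, against 10.2%). Merging peaks within 500 bp left 8 (15.4%, against 12.6%). The share of members was above that of all genes under each of these rules, but by few genes. At the share of all genes 6.63 members would be bound under the main rule, in place of 8. Counted this way the excess ran from 0.361 members with peak midpoints to 3.31 within 2000 bp, and the rules share the same peaks.

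**Figure D5:**
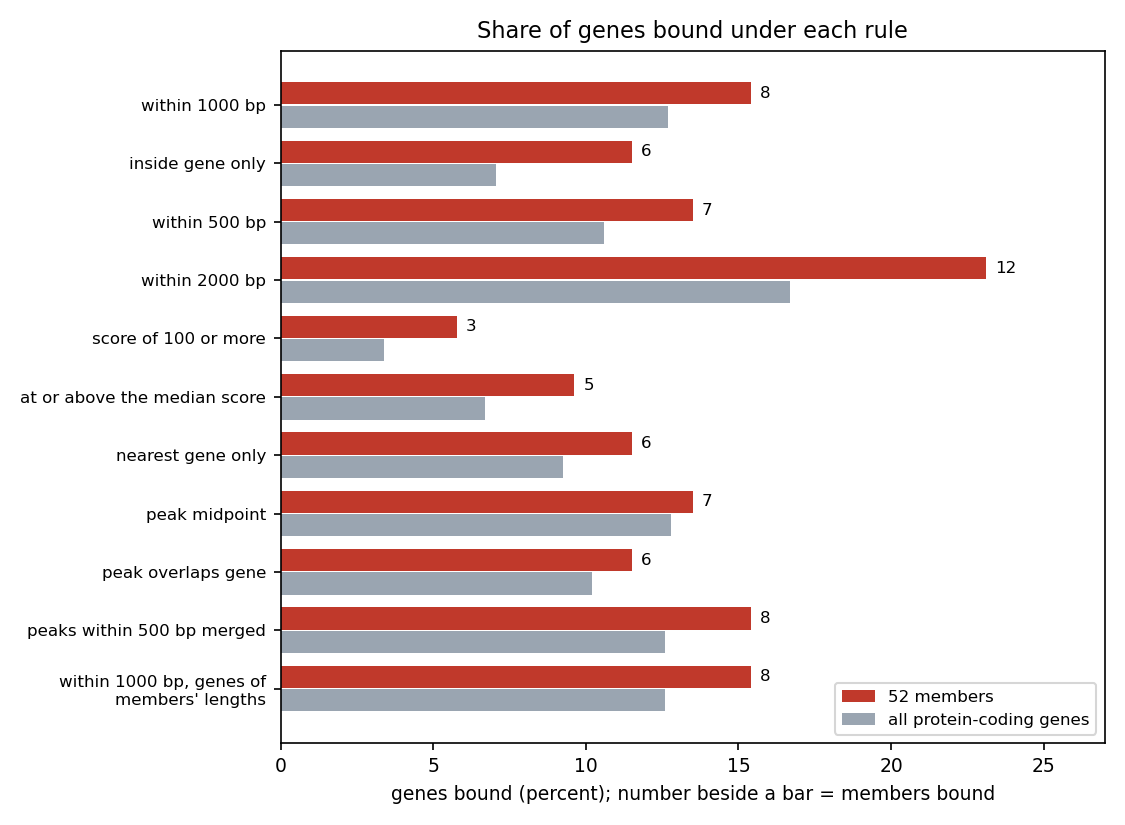
Percent of the 52 members (red) and of all protein-coding genes (grey) bound under each rule, with the number of members beside each red bar. The last pair compares members with the 18025 genes within the members' range of lengths, 845 to 3160 bp, which are not matched to the members one by one. Red bars run from 5.77% to 23.1% and grey bars from 3.38% to 16.7%.

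By chromosome, 5 of the 8 bound members were on chromosome 2, where 5 of 13 members were bound (38.5%), against 14.2% of all genes there. These 5 were GSTZ1, the neighbours GSTU4 and GSTU5, which share a summit, and the tandem pair GSTF9 and GSTF10. They are thus not 5 independent values. On chromosome 1, which holds 25 members, 2 were bound (8.0%, against 11.8%). On chromosome 5, 1 of 8 was bound (12.5%, against 10.9%). None of the 5 members on chromosome 3 and not the 1 on chromosome 4, GSTF2, was bound, against 11.5% and 17.3% of genes. The bound share of genes also changes with distance from windows of 500000 bp that hold under 60 protein-coding genes. Beyond 5 Mb from such windows 4 of 37 members were bound (10.8%), against 8.72% of all genes. At 2 to 5 Mb 3 of 9 were bound, against 15.1% of all genes, and within 2 Mb 1 of 6, against 21.9%. Most of the family, 37 of 52 members, lay in the zone where genes were bound least often. Of all protein-coding genes 15816 of 27444 lay there, a smaller share than of the members. The comparison of the whole family with all genes was not matched for this distance.

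Other genes of glutathione use were read from a list of 30 genes with roles in glutathione synthesis, reduction, peroxide removal, chelation and transport, with the TGA factors that bind stress elements of some glutathione transferase promoters. Of these 30 genes 6 were bound (20.0%), against 12.7% of all genes. The count ran from 2 with scores of 100 or more to 7 within 2000 bp, where 3.38% and 16.7% of all genes were bound. No interval is given for this short list. GSH1 (AT4G23100), which makes the first and limiting step of glutathione synthesis, had a summit inside it that scored 106.6 at 32 fragments. GSH2, the second step, had its nearest summit at 13330 bp. GR1 (AT3G24170), a glutathione reductase, was 528 bp from a summit with a score of 97.78, while its plastid and mitochondrial counterpart (AT3G54660) was 1234 bp from one scoring 51.67. Of 8 glutathione peroxidase genes 2 were bound, GPX8 (AT1G63460) by a summit inside it with a score of 59.43 and GPX6 (AT4G11600) by one 76 bp away with a score of 66.35. PCS1 (AT5G44070), which makes metal-binding phytochelatins from glutathione, held a summit scoring 86.17. OPT3 (AT4G16370), an oligopeptide family transporter, had a summit 190 bp away that scored 157.44, the highest among the 6 bound genes. None of the 7 TGA factor genes TGA1 to TGA7 was bound, the nearest being TGA3 at 6572 bp, and neither was any of the vacuolar conjugate transporters ABCC1, ABCC2 and ABCC3.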

How the data were processed

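ChIP-seq of IBH1-GFP and GFP seedlings was examined through the deposited peak and summit lists. The tools were CASAVA 1.8.2, Bowtie and MACS and the build was TAIR9, per the submitters' processing notes. Settings, and any use of the GFP library as background, were not given in the sources used here. Per the labels' protocols, libraries were amplified with 18 PCR cycles. The authors deposited a score per peak (in MACS, the −log10 of the peak's p-value times 10, lowest 50.01) and a signal height per summit (14 to 100 stacked fragments).

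Genes came from the RefSeq gene table of TAIR10.1. The share of summits inside protein-coding genes was 67.5% with no shift, 67.6% at the best shift of -100 bp, and at most 61.0% at shifts of 2000 to 5000 bp, so its gene bounds were used for distances. Printed coordinates are the authors', counted from 1. Of 31 genes in the glutathione list, TCHQD was dropped because its symbol did not match. Assignment was tested on simulated positions (Python 3.11.15, pandas 2.3.3). Intervals are exact (Clopper-Pearson). Genes named are all bound members, members within 2000 bp, array neighbours, all of the small classes and bound list genes, plus others chosen after their values were seen. Members, lists and the comparisons by length, chromosome and distance were chosen with earlier results of these data known. Without sequence, the planned promoter motifs were not analysed here.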

Additional observations from a re-analysis of the deposited data

How the results depend on the processing

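Most family values moved with the score limit. With scores of 100 or more, 3 members were bound in place of 8 (5.77% in place of 15.4%), through 2 peaks in place of 7, with 1 summit inside a member in place of 6, and 2 genes of the glutathione list in place of 6. The median score of these peaks was 224.71. At or above the median score these were 5 members, 4 peaks and 3 summits inside, with a median score of 109.56. Fewer peaks enter by construction in both. Members matched by symbol alone gave 8 bound genes (15.7%), 7 peaks, 6 summits inside and a median score of 74.23, as with synonyms apart from the share. The tau class alone had 4 bound genes (14.3%), 3 peaks, 3 summits inside and a median score of 59.6, and the family without it 4 (16.7%), 4, 3 and 109.06, which divides the 8 genes by construction. Within 2000 bp the peaks rose to 11, adding GSTU15, GSTU16, GSTU28 and GSTF2. For summits inside genes, nearest gene and overlap the median score was 72.89, and inside genes the glutathione list had 3. The share of all genes was 7.05% inside genes, 10.6% within 500 bp, 16.7% within 2000 bp, 3.38% and 6.7% under the higher and lower score limit, 9.26% for the nearest gene and 10.2% for overlap. GSTF9 and GSTF10 stayed bound under all 9 settings on distance, score, assignment, point and merging, GSTU5 under 8, GSTU13, GSTU14 and DHAR3 under 7, GSTZ1 under 6 and GSTU4 under 3. With scores of 100 or more, GSTF9 was bound only through the summit of GSTF10, since its own peak scored 74.23. No paired analysis was possible because the design holds 1 library a group. Depth is unknown and weaker peaks are not listed, so members without a summit cannot be called free of IBH1.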
